A study of Mus musculus with 22 samples.

Results

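Messenger RNA bound to tagged ribosomes was compared between astrocytes and layer V neurons of the mouse cortex, gene by gene and then by the transcript that each gene mainly used. Every batch 1 library of these cell types was taken, 3 of astrocytes and 3 of layer V cortical neurons, which makes 6 of the 22 libraries of the series. All mice were 6 weeks old and carried the RiboTag allele in a single copy (Rpl22 Fl/+, from the line B6N.129-Rpl22tm1.1Psam/J). Cre recombinase switches this allele to a form of the ribosomal protein RPL22 with an HA tag, so that ribosomes of the recombined cells can be collected from a cortex lysate with anti-HA beads. Layer V neurons carried Rbp4-Cre, a transgene driven by regulatory DNA of a retinol binding protein gene, which the series also uses for granule cells of the dentate gyrus. Astrocytes carried the driver that the labels call Aldh1-cre and the methods of the study call Aldh1l1-cre/ERT2, which recombines after tamoxifen, given by oral gavage on 5 days from 3 weeks of age. Tamoxifen is described for inducible lines, so tamoxifen and cell type cannot be told apart here. By label, astrocyte library 1 was from female and libraries 2 and 3 from male mice, while layer V libraries 1 and 2 were from female and library 3 from male mice. The study describes its replicates as biological, the number of mice behind each library is not given in the sources used here, and p values measure the spread between these libraries.

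Astrocytes are glia that take up glutamate and GABA, buffer potassium, surround blood vessels with endfeet rich in water channels, and supply other cells with lipoproteins, serine and lactate. Layer V pyramidal neurons are large excitatory cells that send axons to the striatum, brainstem and spinal cord and rely on voltage-gated channels, vesicle release and neurofilament-rich axons. The cell types lie side by side, and a ribosome pulldown enriches RNA of the tagged cells without removing all RNA of their neighbours.

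Estimated counts, the reads that the quantifier assigned to transcripts, summed to 61690065, 64860407 and 71440915 in astrocyte libraries 1 to 3. They summed to 54633071, 65977155 and 53999691 in layer V libraries 1 to 3. Levels are given as TPM (a scaled abundance that allows for transcript length), always in the order of libraries 1 to 3 and with astrocytes first. Across the 20818 genes tested, which are not independent replicates, log2 CPM (counts scaled to library size) correlated at 0.9948 to 0.9974 between astrocyte libraries, at 0.9976 to 0.9984 between layer V libraries and at 0.8611 to 0.8722 between the cell types. Differences were tested with edgeR on counts summed per gene, and a call means that the adjusted p was 0.05 or less and the levels differed 2-fold or more. All log2 fold changes are astrocytes minus layer V neurons, so that a positive value is higher in astrocytes. By these criteria 27.2% of all genes tested were called higher in astrocytes and 20.9% higher in layer V neurons, the background against which each gene group below is read.

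Astrocyte library 1 stood apart in RNA of the choroid plexus, the epithelium that secretes cerebrospinal fluid. Transthyretin (Ttr), which carries thyroid hormone and retinol, was at 3634.9, 4.99 and 11.6 TPM in astrocytes and 12.8, 0.641 and 0.421 TPM in layer V neurons. Its log2 fold change was 8.09 (SE 2.31, edgeR adjusted p = 0.0081) with all libraries and 1.06 (adjusted p = 0.34) without astrocyte library 1, while it was 11.13 without layer V library 1 and 8.68 without astrocyte library 2 or 3. A list of 8 choroid plexus markers, added after the data were seen, had 6 members called higher in astrocytes and 0 in layer V neurons, with a median log2 fold change of 3.65. DESeq2 called 2 of them higher in astrocytes. Without astrocyte library 1, edgeR called 1 higher in layer V neurons, while Ttr and Enpp2 were no longer called. The 8 markers summed to 4003.0, 69.9 and 72.7 TPM against 74.1, 57.4 and 62.4 TPM, with 0 markers at 0. Ttr was the most abundant in astrocyte library 1 and Enpp2 in the other 5 libraries. Enpp2, which makes lysophosphatidic acid, was at 304.1, 57.4 and 53.9 against 57.5, 54.4 and 59.4 TPM. Its log2 fold change went from 1.38 (edgeR adjusted p = 0.033) to 0.13 (adjusted p = 0.03) without astrocyte library 1. The call was also lost without any single layer V library, although the value stayed at 1.39 (adjusted p of 0.073 to 0.097). It was likewise lost by DESeq2 at 1.37 (adjusted p = 0.13) and with a replicate block at 0.89 (edgeR adjusted p = 0.051). Sostdc1, a secreted inhibitor of BMP signalling, was at 10.1, 0.364 and 0.294 against 1.17, 1.06 and 1.4 TPM. Its log2 fold change went from 1.6 (edgeR adjusted p = 0.17) to -1.69 (adjusted p = 0.00018) without astrocyte library 1. It was 2.15 (adjusted p = 0.044) without astrocyte library 3 and 0.29 (adjusted p = 0.77) with a replicate block. The potassium channel gene Kcnj13 was at 14, 4.46 and 3.85 against 0.122, 0.0486 and 0.0307 TPM and had a log2 fold change of 6.83 with all libraries, 6.09 without astrocyte library 1 and 7.48 without layer V library 1. Without astrocyte library 1, the number of genes called in each direction stayed within 1.5 times that with all libraries.

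Globin RNA also separated the groups. A list of 5 red blood cell markers, likewise added after the data were seen, summed to 5664.4, 11574.0 and 10524.0 TPM in astrocytes against 61.6, 109.5 and 73.7 TPM in layer V neurons, and 5 of 5 were called higher in astrocytes with a median log2 fold change of 7.34 and 0 markers at 0. Hbb-bs, a beta globin gene and the most abundant of them in astrocytes, was at 2520.8, 5237.7 and 4746.7 against 23.4, 34.7 and 25.0 TPM, while in layer V neurons the alpha globin gene Hba-a2 led. The split of reads among the near-identical globin copies is uncertain, and the part of red blood cell RNA in other differences was not tested. Xist, the RNA that coats the inactive X chromosome, was at 19.7, 0.032 and 0.0 against 2.45, 2.73 and 0.0063 TPM, and the Y-linked helicase gene Ddx3y was at 0.0162, 33.1 and 28.4 against 0.0859, 0.0 and 27.0 TPM, which matches the sex labels of all 6 libraries. Of 5 sex-linked genes, 0 were called in either direction by edgeR or by DESeq2 and 0 had an unadjusted p under 0.05 in either tool, with a median log2 fold change of 1.68. Because the sexes are unequal between the groups, 4 of the 5 were called higher in astrocytes when layer V library 3, its male library, was left out, and without astrocyte library 1 there were 2 higher in astrocytes and 1 in layer V neurons.

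The markers of each cell type followed the labels. Slc1a2 (ENSMUSG00000005089.15, chr2:102658659-102790784, GRCm38), the main glutamate transporter of astrocytes, was at 3487.3, 3089.4 and 3321.6 against 70.6, 69.6 and 70.0 TPM, a log2 fold change of 5.66 (SE 0.08, edgeR adjusted p = 8e-13). Snap25 (ENSMUSG00000027273.13, chr2:136713453-136782428), a membrane protein of the vesicle fusion machinery of neurons, was at 569.9, 667.0 and 461.3 against 5534.5, 5440.7 and 5584.4 TPM, a log2 fold change of -3.22 (SE 0.12, adjusted p = 6.6e-10). The libraries of the cell types did not overlap for either gene, but neuronal RNA was far from absent in astrocyte libraries. The genes whose regulatory DNA the Cre lines are named for followed their cell type, with the folate enzyme gene Aldh1l1 at 352.3, 332.7 and 361.1 against 27.7, 27.3 and 27.9 TPM (4.29) and Rbp4 at 8.77, 6.77 and 6.41 against 51.5, 52.8 and 52.3 TPM (-2.71). Rpl22, the gene that carries the tag, was at 308.3, 297.3 and 300.6 against 140.2, 151.7 and 191.2 TPM with a log2 fold change of 0.71 that was not called, and of 1.03 (adjusted p = 4.7e-06) when the fit allowed for transcript length.

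All 22 astrocyte markers were called higher in astrocytes, against 27.2% of all genes tested, with a median log2 fold change of 7.2. They summed to 24392.6, 22332.6 and 23363.2 TPM in astrocytes, with the aldolase gene Aldoc the most abundant, and to 333.9, 324.8 and 320.1 TPM in layer V neurons, where S100b was the most abundant and 0 were at 0. These layer V sums are 1.43, 1.39 and 1.37% of the astrocyte mean. Of 22 markers of layer V and pyramidal neurons, 21 were called higher in layer V neurons, against 20.9% of all genes, with a median of -2.57. The exception was Tle4, a corepressor gene best known from deep cortical layers, at 35.9, 33.7 and 33.2 against 10.3, 9.79 and 10.2 TPM (1.89). The neuronal markers summed to 2439.3, 2459.7 and 1966.6 TPM in astrocytes and 17211.6, 17207.1 and 17094.8 TPM in layer V neurons, so that astrocyte libraries held 14.2, 14.3 and 11.5% of the layer V mean and 0 markers were at 0. Fewer cells of a type and less RNA per cell cannot be told apart in such sums. The part of this neuronal RNA in the size of each fold change was not tested.

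RNA of other cell types was also measured, and most of it was higher in astrocyte libraries. Oligodendrocyte markers had 12 of 12 members called higher in astrocytes (median 2.93) and summed to 1327.9, 1235.3 and 1088.3 against 250.5, 248.0 and 238.9 TPM, with the myelin basic protein gene Mbp the most abundant. Oligodendrocyte precursor markers had 6 of 8 higher in astrocytes and 0 in layer V neurons (median 2.78), with sums of 32, 32.4 and 27.9 against 11, 10.5 and 11.3 TPM. C1ql1 was the most abundant in all but layer V libraries 1 and 2, where Lhfpl3 was, and C1ql1 gained a call at 1.01 without layer V library 3. Among microglia markers 11 of 12 were higher in astrocytes and 0 in layer V neurons (median 3.24), with sums of 171.6, 167.2 and 134.9 against 29.3, 31.8 and 29.4 TPM. Among endothelial markers 8 of 10 were higher in astrocytes and 0 in layer V neurons (median 2.24), with sums of 86.0, 75 and 60.0 against 18.8, 21.3 and 20.1 TPM, led by Ly6c1 in all but layer V library 1, where Esam led. Mural cell and fibroblast markers had 9 of 10 higher in astrocytes and 1, the proteoglycan gene Dcn, higher in layer V neurons (median 3.01), with sums of 115.8, 132.3 and 123.4 against 65.8, 53.5 and 70.8 TPM. Vtn led that list in astrocytes and Dcn led it in layer V neurons. Interneuron markers split differently, with 8 of 12 higher in astrocytes and 1, the calcium buffer gene Pvalb, higher in layer V neurons (median 1.71). Their sums of 385.8, 432.6 and 376.8 against 437.4, 420.7 and 382.3 TPM overlapped, and the somatostatin gene Sst, the most abundant, was at 150.6, 138.7 and 103.4 against 274.8, 260.1 and 231.6 TPM (-0.8, not called). In these 6 lists 0 markers were at 0 in any library, and the part of these cell types in the differences below was not tested.

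Of the 20818 genes tested, 5669 were called higher in astrocytes and 4355 higher in layer V neurons, together 48.2%. A further 6060 passed the adjusted p with a difference under 2-fold, so that 77.3% of genes passed the adjusted p alone, and 4734 did not pass it. The median log2 fold change over all genes tested was 0.05. The directions were unequal in size, as a difference of 8-fold or more was seen in 2207 genes called for astrocytes and in 260 called for layer V neurons. At 32-fold the counts were 878 and 17. The median called difference was 2.47 log2 units in the astrocyte direction and 1.78 in the layer V direction. Genes called higher in astrocytes made up 41.0, 38.8 and 39.1% of the TPM in astrocyte libraries and 5.23, 5.26 and 5.41% in layer V libraries. Genes called higher in layer V neurons made up 34.9, 34.2 and 35.7% of the TPM in layer V libraries and 9.07, 9.0 and 7.96% in astrocyte libraries. The neuronal marker sums of 11.5 to 14.3% given above are on another scale, as a share of the layer V mean. On that scale the astrocyte marker sums in layer V libraries were 1.37 to 1.43% of the astrocyte mean. RNA of the other cell type was thus unequal between the groups, and its part in the unequal sizes of the directions was not tested.

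Among called genes with a mean of at least 20 TPM in the higher group, predicted genes left out, the 12 with the largest differences in the astrocyte direction had log2 fold changes of 8.61 to 9.04. Acsbg1 (ENSMUSG00000032281.11, chr9:54604877-54661870), an acyl-CoA synthetase gene, led at 1001.3, 901.2 and 999.9 against 1.87, 2.25 and 1.78 TPM (SE 0.13, edgeR adjusted p = 9e-13). Mlc1, whose membrane protein at astrocyte endfeet is mutated in a leukoencephalopathy with cysts, was at 860.3, 842.0 and 896.8 against 1.91, 2.04 and 1.62 TPM (9.0). Mfge8, a bridging protein for the uptake of dying cells, was at 1572.1, 1427.6 and 1459.5 against 2.98, 3.59 and 3.6 TPM (8.94). The group went on with the urea transporter gene Slc14a1 (8.82), the lecithin-cholesterol acyltransferase gene Lcat (8.81), the orphan receptor gene Gpr37l1 (8.76) and Phgdh (8.73), which encodes the enzyme of the first step of serine synthesis. It closed with the tight junction gene Cldn10 (8.71), the adhesion gene Vcam1 (8.69), the glutamate transporter gene Slc1a3 (8.61), Apoe (8.61) and the scaffold gene Slc9a3r1 (8.61).

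The most abundant of the called astrocyte genes was Apoe (ENSMUSG00000002985.16, chr7:19696109-19699188), the apolipoprotein of astrocyte lipoproteins, at 31685.7, 29943.3 and 30401.4 against 80.8, 81.5 and 76.8 TPM (8.61, SE 0.1, edgeR adjusted p = 4.6e-13). It was followed by Cpe, a peptide-processing carboxypeptidase gene, at 14833.4, 13781.4 and 14348.6 against 1609.9, 1528.0 and 1617.6 TPM (3.53). Cst3, the gene of the secreted protease inhibitor cystatin C, was at 11369.9, 9991.2 and 10496.4 against 289.7, 295.4 and 281.0 TPM (5.33). Glutamine synthetase (Glul), which turns glutamate into glutamine, was at 9468.7, 8752.7 and 8884.0 against 83.5, 85.8 and 79.3 TPM (6.88). Next came the matricellular gene Sparcl1 (4.5), Aldoc (7.13), Ndrg2 (6.99), the secreted chaperone gene clusterin (Clu, 5.31), the tetraspanin gene Tspan7 (2.6) and the brain creatine kinase gene Ckb (1.84). In all of these genes every astrocyte library was above every layer V library. They were picked from called genes, so this separation is no separate support.

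In the layer V direction, with the same minimum of 20 TPM and predicted genes left out, the 12 largest differences ran from -3.56 to -7.77. The first of them, AA465934 (chr11:83291699-83294632), a processed transcript without a known protein, was at 10.3, 8.14 and 9.41 against 1310.0, 1579.3 and 3699.9 TPM (-7.77, SE 0.44, edgeR adjusted p = 2.9e-08), and was at -7.18 without layer V library 3. EU599041, a long intergenic RNA, was at 1.46, 5.11 and 9.35 against 965.5, 1012.3 and 1646.4 TPM (-7.65). It was at -8.41 without astrocyte library 3. With the batch 2 libraries in place of the batch 1 libraries of the same cell type and replicate number, it was at -6.99. Both are non-coding genes whose reads may be shared with similar copies, so their levels are uncertain. Klf10 (ENSMUSG00000037465.10, chr15:38291463-38300706), a zinc finger transcription factor gene induced by TGF-beta, was at 479.2, 786.8 and 543.1 against 11592.1, 11953.9 and 16248.8 TPM (-4.08, SE 0.21, adjusted p = 1.2e-08), and had the highest TPM of the called layer V genes. By estimated counts it was under Snap25, with 52891.5, 68715.2 and 77008.1 against 266332.7, 327169.4 and 264438.1 in layer V libraries 1 to 3. The calcium-binding troponin gene Tnnc1 followed at 9.19, 7.7 and 5.86 against 129.2, 131.0 and 109.0 TPM (-3.93). Kcng1, a modifier subunit of potassium channels, was at 4.24, 3.95 and 2.78 against 59.8, 52.2 and 56.7 TPM (-3.85). Adcyap1, the gene of the neuropeptide PACAP, was at 4.08, 5.04 and 3.96 against 66.7, 66.6 and 61.6 TPM (-3.82). The others were the POU factor gene Pou3f1 (-3.76), the thyrotropin-releasing hormone gene Trh (-3.74, and -4.44 without astrocyte library 3), the zinc finger gene Ovol2 (-3.72), the protease inhibitor gene A2ml1 (-3.69), Dkkl1 (-3.62) and the neurofilament gene Nefm at 37.5, 37.9 and 30.6 against 452.4, 439.4 and 487.8 TPM (-3.56).

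After Klf10, the called layer V genes of highest TPM had varied functions. Calm2, a calmodulin gene, was at 768.2, 843.8 and 731.7 against 6295.5, 6250.6 and 6304.6 TPM (-2.92). Neurogranin (Nrgn), which binds calmodulin in dendrites, was at 607.4, 614.1 and 472.2 against 4977.0, 5181.3 and 4788.3 TPM (-2.99). The neuropeptide gene Cck was at 251.3, 261.3 and 199.6 against 2595.7, 2543.7 and 2329.2 TPM (-3.23). Others were Snap25, the aldolase gene Aldoa (-1.03), the chaperone gene Hspa8 (-1.18), the microtubule regulator gene Stmn1 (-2.43) and the reticulon gene Rtn1 (-2.6). The call of Aldoa was lost without a filter on low counts (-0.98). In each of these genes every layer V library was above every astrocyte library, at neuronal marker sums in astrocytes of 11.5 to 14.3% of the layer V mean. These genes too were picked from called genes, so the separation is no separate support.

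**Figure D1:**
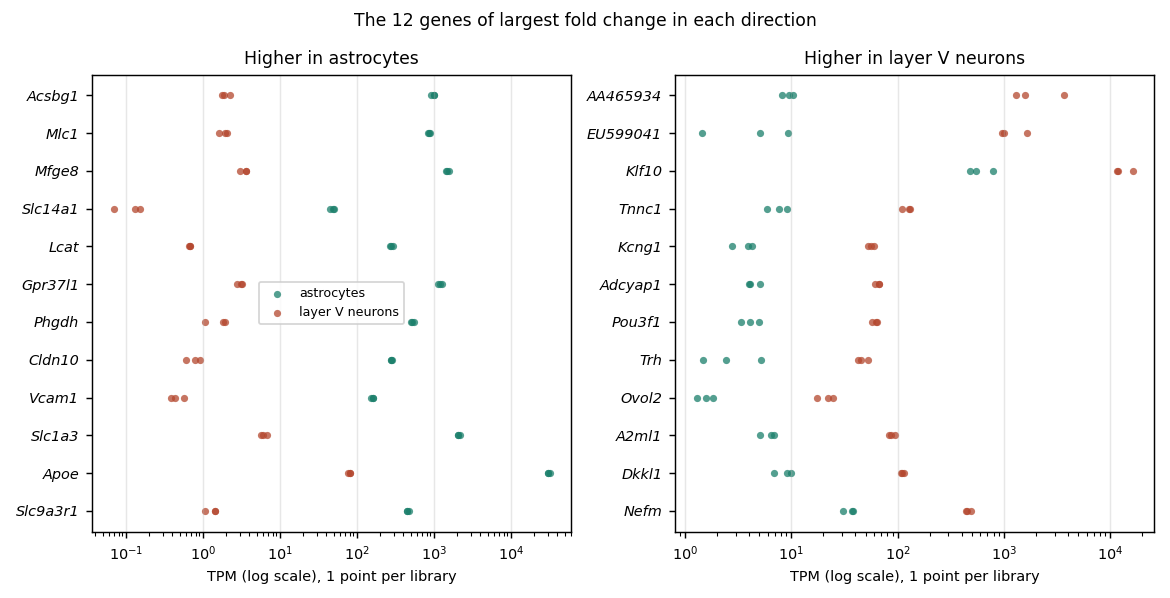
TPM on a log scale of the 12 genes with the largest fold change in each direction, among called genes with a mean of at least 20 TPM in the higher group and without predicted genes, with 1 point for each of the 3 astrocyte and 3 layer V libraries. The points of the cell types do not overlap for any of these genes, from Acsbg1 at log2 9.04 to Nefm at -3.56. The genes were picked for large called differences, so the gap is no separate support.

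Genes of transmitter uptake and recycling went both ways, with 10 of 18 higher in astrocytes, 7 higher in layer V neurons and a median log2 fold change of 2.77. Astrocytes held the glutamate transporters Slc1a2 and Slc1a3, the GABA transporter Slc6a11, Glul and the GABA-degrading enzymes Abat and Aldh5a1. Layer V neurons held the vesicular glutamate transporter gene Slc17a7 at 234.3, 217.4 and 166.7 against 1237.7, 1183.0 and 1202.3 TPM (-2.41) and the aspartate aminotransferase genes Got1 (-1.95) and Got2 (-1.87). The glutamate transporter gene Slc1a1 (-2.15) and the glutamine carrier gene Slc38a1 were also higher in layer V neurons, although related carriers were higher in astrocytes. Slc38a2, a further glutamine carrier gene, was not called, at 17.2, 16.4 and 15.1 against 20.5, 20.0 and 23.0 TPM (-0.23). Gap junction, endfoot and ion buffering genes were 19 of 20 higher in astrocytes and 0 in layer V neurons, with a median of 6.61. Connexin 43 (Gja1), the main gap junction protein of astrocytes, was at 1003.0, 1103.6 and 1054.0 against 3.87, 3.59 and 3.36 TPM (8.31). The member not called was the chloride channel gene Clcn2 at 36.1, 29.3 and 29.7 against 21.6, 22.7 and 23.4 TPM (0.5).

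Secreted and phagocytic genes of astrocytes were 22 of 25 higher in astrocytes and 0 in layer V neurons, with a median of 6.47. Gas6, a ligand of phagocytic receptors, was the most abundant of the members not called, at 122.6, 95.0 and 96.8 against 69.8, 66.4 and 67.8 TPM (0.75). Extracellular matrix genes were 21 of 28 higher in astrocytes and 2 higher in layer V neurons, with a median of 2.77. The perineuronal lectican gene brevican (Bcan) was at 1275.2, 1158.6 and 1232.6 against 11, 10.5 and 10 TPM (7.38, and 8.2 from protein-coding transcripts alone), and the proteoglycan gene Cspg5 was at 1294.2, 1231.4 and 1207.2 against 177.7, 177.5 and 169.4 TPM (2.78). The link protein gene Hapln4 went the other way at 15, 14.1 and 10.8 against 74.9, 68.5 and 71.6 TPM (-2.32), as did the hyaluronan synthase gene Has1 at 0.262, 0.148 and 0.131 against 0.572, 0.562 and 0.493 TPM (-1.46). Markers of mural cells, fibroblasts and microglia, which also make matrix and phagocytic proteins, were higher in the same libraries, with the sums given above.

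Transcription factor genes of astrocytes were 25 of 28 higher in astrocytes and 0 in layer V neurons, with a median of 4.77. Id3, an inhibitor of basic helix-loop-helix factors, was at 273.0, 290.4 and 256.8 against 1.62, 1.69 and 2.28 TPM (7.48). Sox2, a factor of neural progenitors that mature astrocytes keep, was at 257.2, 278.1 and 244.9 against 2.59, 2.43 and 2.42 TPM (6.82). Nfix, a nuclear factor I gene, was not called, at 176.6, 161.6 and 172.7 against 192.3, 185.3 and 186.1 TPM (-0.08). Notch pathway genes were 15 of 25 higher in astrocytes with a median of 1.98, and 1, the Notch inhibitor gene Numbl, was higher in layer V neurons at 27.1, 27.2 and 23.2 against 120.4, 110.8 and 123.1 TPM (-2.03), with 2 such genes without layer V library 1 or astrocyte library 3. The Notch target gene Hes5 was at 128.8, 119.0 and 121.3 against 4.36, 4.14 and 3.98 TPM (5.13), and Lfng, which modifies Notch with sugar, was at 115.0, 90.5 and 93.8 against 0.7, 0.875 and 0.619 TPM (7.26). Growth factor and hedgehog receptor genes were 18 of 24 higher in astrocytes with a median of 2.96. Fgfr3, a receptor of fibroblast growth factors, was at 560.7, 469.6 and 487.3 against 3.08, 3.21 and 3.35 TPM (7.18), and the endothelin receptor gene Ednrb was at 146.6, 182.8 and 183.7 against 0.56, 0.548 and 0.618 TPM (8.31). The 1 receptor gene higher in layer V neurons was the neurotrophin receptor gene Ntrk3 at 19.2, 18.6 and 16.2 against 33.5, 33.6 and 38.7 TPM (-1.21), a call that was lost at -0.86 when the fit allowed for transcript length.

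Lipid pathways leaned to astrocytes. Cholesterol synthesis and export genes were 20 of 31 higher in astrocytes and 1 higher in layer V neurons, with a median of 1.74. Msmo1, a sterol oxidase gene, was at 463.8, 530.6 and 491.7 against 76.4, 70.0 and 68.6 TPM (2.97), and Hmgcs1, whose product makes HMG-CoA, was at 630.6, 796.8 and 728.7 against 263.4, 242.9 and 249.4 TPM (1.63). The sterol exporter gene Abcg1 was higher in layer V neurons at 5.45, 4.87 and 4.28 against 19.4, 18.6 and 18.9 TPM (-1.85). Fatty acid oxidation and ketone genes were 26 of 32 higher in astrocytes with a median of 3.17. Cpt1a, the enzyme that admits long fatty acids to mitochondria, was at 73.2, 67.6 and 73.1 against 0.556, 0.583 and 0.538 TPM (7.21), and Hadhb, a subunit of the trifunctional protein of beta oxidation, was at 326.9, 312.1 and 312.9 against 21.2, 22.4 and 23.6 TPM (3.97). The 3 members higher in layer V neurons were all acyl-CoA synthetase genes, Acsl5 (-2.36), Acsl4 (-1.47) and Acsl1 (-1.03, and -0.98 without astrocyte library 1, which ended its call). Oxct1, which starts the use of ketone bodies, was not called, at 426.1, 359.6 and 429.0 against 238.3, 252.9 and 272.9 TPM (0.5).

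Serine, glycine and folate genes were 16 of 24 tested (of 25 listed) higher in astrocytes, with a median of 2.07. Phgdh was at 504.8, 523.9 and 545.8 against 1.8, 1.93 and 1.07 TPM (8.73), and Psat1, the next enzyme of serine synthesis, was at 432.5, 422.1 and 398.4 against 15.7, 13.8 and 15.7 TPM (5.02). The 1 member higher in layer V neurons was the mitochondrial folate enzyme gene Mthfd1l at 2.09, 2.17 and 1.86 against 7.46, 6.55 and 8.41 TPM (-1.8). Antioxidant and glutathione genes were 19 of 36 higher in astrocytes and 2 higher in layer V neurons, with a median of 1.5. The metallothionein gene Mt1 was at 3386.1, 2956.8 and 3211.2 against 74.9, 71.7 and 58.9 TPM (5.72), and the peroxiredoxin gene Prdx6 was at 2331.2, 2344.0 and 2262.4 against 56.4, 61.7 and 60.5 TPM (5.33). Mgst3 (-2.1) and the secreted peroxidase gene Gpx3 (-1.77) were higher in layer V neurons. Glycolysis, glycogen and lactate genes had 15 of 35 higher in astrocytes and 5 higher in layer V neurons, with a median of 0.8 and 15 not called. Glycogen phosphorylase of the brain type (Pygb) was at 550.6, 513.9 and 558.5 against 27.6, 25.0 and 26.0 TPM (4.5), while the neuronal enolase gene Eno2 was at 155.6, 161.1 and 134.7 against 996.7, 956.2 and 1001.9 TPM (-2.75). Gapdh, the shared middle step, was at 4525.3, 4321.3 and 4506.9 against 5002.9, 4795.0 and 4918.7 TPM (0.04, adjusted p = 0.57), with a sign that depended on the scaling (-0.05 by library size alone).

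Transcription factor genes of projection neurons were 21 of 27 higher in layer V neurons and 1 higher in astrocytes, with a median log2 fold change of -1.93. Mef2c, an activity-regulated factor, was at 56.6, 64.9 and 48.9 against 423.1, 422.3 and 443.8 TPM (-2.96). Neurod6, a factor of pyramidal neurons, was at 17.6, 18 and 12.1 against 145.8, 137.7 and 151.1 TPM (-3.09). The homeobox gene Cux1, known from upper cortical layers, was the member higher in astrocytes, at 62.8, 58.3 and 65.2 against 21.6, 19.4 and 20.2 TPM (1.51).

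Voltage-gated sodium channel genes were 9 of 13 higher in layer V neurons and 0 in astrocytes (median -1.78). The pore gene Scn2a was at 19.2, 19.1 and 13.3 against 86.0, 85.5 and 88.5 TPM (-2.37). Voltage-gated calcium channel genes were 13 of 17 higher in layer V neurons (median -1.51), and 2 accessory subunit genes were higher in astrocytes, Cacna2d2 at 17.2, 16.2 and 16.6 against 6.17, 6.15 and 6.0 TPM (1.57) and Cacna2d4 (1.16). Potassium and HCN channel genes were 24 of 33 higher in layer V neurons (median -1.31), and 1 was higher in astrocytes. Kcna2, a channel of the axon, sat on the threshold at -1.0, and lost its call without layer V library 2 or astrocyte library 2 (-0.99 in each).

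Presynaptic release genes were 38 of 45 higher in layer V neurons (median -2.13). The synaptic vesicle genes Vamp2 and Syp were at 360.7, 365.0 and 324.8 against 1719.4, 1698.0 and 1651.8 TPM (-2.13) and at 213.2, 234.0 and 189.5 against 1712.8, 1577.5 and 1589.9 TPM (-2.81). The 2 members higher in astrocytes were Syngr2, a synaptogyrin found outside neurons, at 13.3, 10.6 and 11.4 against 0.827, 0.503 and 0.841 TPM (4.18), and the priming factor gene Unc13c at 9.71, 8.25 and 8.97 against 2.39, 2.2 and 2.02 TPM (2.05). Postsynaptic scaffold and signalling genes were 27 of 37 higher in layer V neurons (median -1.49). Camk2a, the kinase of synaptic plasticity, was at 310.7, 251.2 and 233.7 against 1428.2, 1396.2 and 1442.6 TPM (-2.3), and the scaffold gene Dlg4 was at 196.3, 164.2 and 150.9 against 667.4, 659.4 and 664.1 TPM (-1.94). Homer3, a scaffold of metabotropic glutamate signalling, was the 1 member higher in astrocytes, at 29.7, 28.9 and 30.2 against 0.927, 1.01 and 0.792 TPM (5.2). Neuronal markers in the astrocyte libraries stood at 11.5 to 14.3% of their layer V mean beside these synaptic groups, and their part was not tested.

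Ionotropic glutamate receptor genes were divided, with 8 of 18 higher in layer V neurons, 3 higher in astrocytes and a median of -0.44. Grin1, the obligatory NMDA receptor subunit, was at 55.2, 50.5 and 44.6 against 257.1, 235.8 and 252.3 TPM (-2.19). The subunit gene Grin2c was the reverse, at 153.6, 129.8 and 141.1 against 1.07, 1.17 and 1.2 TPM (7.12), and the little-detected Grin3b (1.88) was also higher in astrocytes. GABA-A receptor genes were 10 of 15 tested higher in layer V neurons (median -1.4). Gabrg1 was the 1 subunit gene higher in astrocytes, at 72.6, 73.5 and 68.5 against 4.15, 3.75 and 4.11 TPM (4.37). Metabotropic receptor and store release genes were 13 of 38 higher in astrocytes and 16 higher in layer V neurons (median -0.72). The neurotensin receptor gene Ntsr2 was at 1023.0, 912.0 and 999.1 against 5.67, 5.61 and 5.52 TPM (7.19, and 8.39 from protein-coding transcripts alone), and the sphingosine 1-phosphate receptor gene S1pr1 was at 731.2, 738.0 and 717.1 against 2.86, 2.89 and 2.42 TPM (8.2). The muscarinic receptor gene Chrm1 was at 18.1, 17.6 and 15 against 88.8, 84.4 and 89.2 TPM (-2.26), and the adrenergic receptor gene Adra1d was at 5.51, 5.37 and 4.45 against 44.6, 43.0 and 44.5 TPM (-2.96). Gabbr1, a GABA-B receptor subunit gene, was not called, at 649.4, 656.8 and 622.8 against 511.8, 507.8 and 509.1 TPM (0.82).

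Axon and cytoskeleton genes were 20 of 36 higher in layer V neurons and 9 higher in astrocytes (median -1.27). The microtubule regulator gene Stmn3 was at 171.1, 188.9 and 150.3 against 1429.5, 1400.8 and 1376.1 TPM (-2.89). The glial filament gene Gfap was at 820.0, 820.5 and 861.9 against 3.74, 3.35 and 4.13 TPM (7.94), and ezrin (Ezr), which links actin to the membrane of fine astrocyte processes, was at 401.7, 339.0 and 363.3 against 3.68, 3.56 and 3.55 TPM (6.8). Tubulin genes went both ways, Tubb4a at -2.66 and Tubb2b at 5.55, although reads of similar tubulin copies may be split uncertainly. Splicing regulator genes were 20 of 32 higher in layer V neurons and 4 higher in astrocytes (median -1.36). Celf4 was at 108.9, 97.9 and 85.5 against 672.0, 655.5 and 658.0 TPM (-2.77) and Rbfox3, known as the neuronal nuclear antigen NeuN, at 65.1, 64.6 and 57.1 against 432.6, 407.4 and 413.1 TPM (-2.63). The 4 astrocyte members were the quaking gene Qk at 377.4, 392.0 and 355.7 against 10.9, 11.1 and 10.8 TPM (5.05, and 5.69 from protein-coding transcripts alone), the musashi genes Msi1 (3.29) and Msi2 (2.81), and Ptbp1 (3.53), a repressor of neuronal exons.

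Immediate early genes were 12 of 20 higher in layer V neurons (median -1.27). The zinc finger factor gene Egr1 was at 38.9, 42.7 and 46.4 against 307.0, 243.1 and 203.2 TPM (-2.38). Btg2, an antiproliferative gene, was the 1 member higher in astrocytes, at 8.84, 11.5 and 11 against 4.06, 4.85 and 4.0 TPM (1.41). Jund was called at -1.03 and lost its call without layer V library 2 (-0.98) or astrocyte library 3 (-0.99). Neuropeptide and trophic ligand genes were 12 of 29 higher in layer V neurons and 9 higher in astrocytes (median -0.04). The pentraxin receptor gene Nptxr was at 99.8, 92.9 and 70.3 against 707.3, 663.3 and 687.7 TPM (-2.83), and the growth factor gene Fgf1 at 173.8, 166.9 and 174.7 against 1.96, 2.18 and 1.85 TPM (6.56). The interneuron peptide gene Vip was also higher in astrocytes, at 34.7, 65.9 and 50.8 against 3.84, 3.42 and 3.24 TPM (3.96), as was Tac1 (1.1, and 0.94 without astrocyte library 2, which ended its call). Beside them the GABA-synthesis gene Gad1 was at 38.7, 51.4 and 52.2 against 16.4, 14 and 14.2 TPM (1.84), and the part of interneuron RNA was not tested.

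Few genes of several housekeeping groups were called, and the shares were not tested against the 27.2% and 20.9% of all genes. Nuclear genes of oxidative phosphorylation had 1 of 78 higher in astrocytes and 2 higher in layer V neurons, with a median of 0.0. The exceptions were the complex II gene Sdhc (1.53) and the ATP synthase genes Atp5g1 (-1.18) and Atp5md (-1.02, and -0.96 with no filter on low counts, which ended its call). Cytosolic ribosomal protein genes had 1 of 79 tested (of 83 listed), the variant gene Rps27l, higher in astrocytes and 0 in layer V neurons, with a median of 0.03, and 1 was higher in layer V neurons without astrocyte library 1. Rps24 was at 827.8, 834.5 and 825.0 against 973.0, 1026.8 and 1030.1 TPM (-0.05, adjusted p = 0.48). Cytosolic tRNA synthetase genes were listed together with the partner genes Aimp1, Aimp2 and Eef1e1, which were not called. This list had 2 of 23 higher in astrocytes, the aspartyl gene Dars (1.4) and the glutamyl-prolyl gene Eprs (1.43). In layer V neurons 1 was higher, the glycyl gene Gars (-1.26), and the median was -0.43. A list of ribosome rescue and stalling genes also held the stress response genes Asns, Chac1, Atf4, Ddit3 and Trib3. It had 0 of 20 higher in astrocytes and 2 higher in layer V neurons with a median of 0.24 (and 1 higher in astrocytes without astrocyte library 3). The 2 were stress response genes, asparagine synthetase (Asns) at 21.4, 21.3 and 19.0 against 125.5, 126.8 and 130.8 TPM (-2.55) and the glutathione-degrading enzyme gene Chac1 (-2.32). The rescue factor genes Gtpbp1 and Gtpbp2 were not called. In contrast, 12 of 13 mitochondrially encoded genes were higher in astrocytes and 0 in layer V neurons, with a median of 2.15. The cytochrome oxidase gene mt-Co1 was at 3772.5, 3334.1 and 2916.4 against 600.5, 696.6 and 727.1 TPM (2.39). Mitochondrial mRNA is translated by ribosomes of the organelle itself, which do not contain RPL22, and the source of this RNA in the pulldowns was not tested. The member not called was mt-Nd3 at 47.2, 20.7 and 14 against 15.1, 29.5 and 36.7 TPM (0.09, with -0.45 without astrocyte library 1 and -0.21 without layer V library 1).

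**Figure D2:**
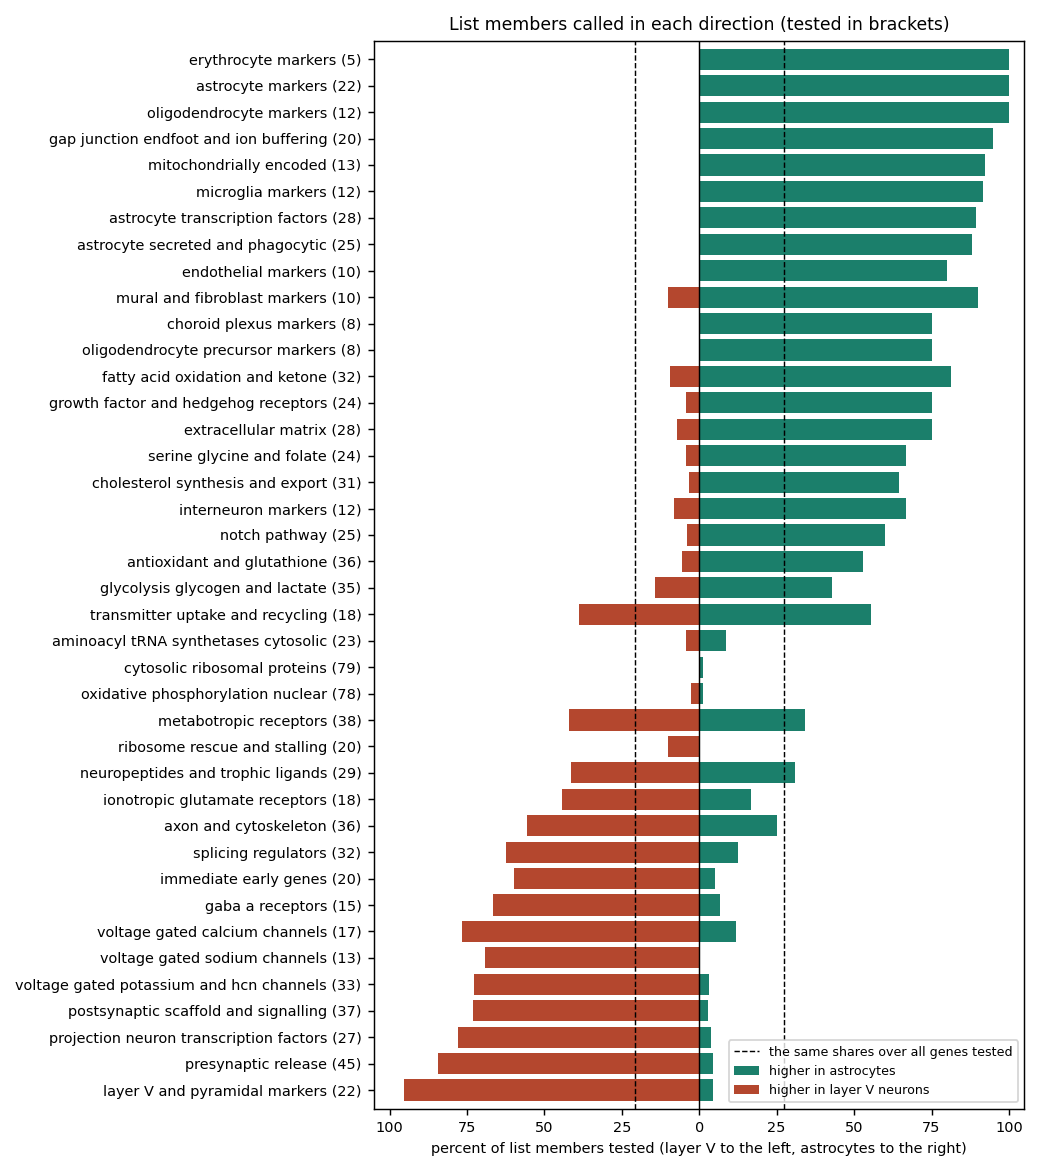
Percent of the tested members of each gene list called higher in astrocytes and in layer V neurons, with dashed lines at the shares over all genes tested, 27.2% and 20.9%. Nuclear oxidative phosphorylation and ribosomal protein genes lie near 0, while 22 of 22 astrocyte markers were called in a single direction.

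Related enzymes and transporters were compared as pairs. Of 25 pairs of paralogues, 11 had the first gene called higher in astrocytes and the second called higher in layer V neurons, 5 had both higher in astrocytes, 8 had 1 gene called and the other not, and in 1 neither was called. Both the pairs and the order within each were chosen with earlier results in view, so neither the number exchanged nor the direction is a finding about paralogues at large. Of the beta subunits of the sodium pump, Atp1b2 made up 82.7, 81.6 and 83.8% of the sum with Atp1b1 in astrocytes and 6.41, 6.51 and 6.21% in layer V neurons. For aldolase, Aldoc made up 83.0, 81.3 and 82.4% of the sum with Aldoa against 1.67, 1.61 and 1.54%. Among inward rectifier potassium channels, Kcnj10 made up 96.7, 96.6 and 97.8% of the sum with Kcnj9 against 2.57, 3.04 and 2.26%. Of the glucose transporters, Slc2a1 made up 78.4, 78.4 and 81.9% of the sum with Slc2a3 against 13.1, 14.3 and 11.9%. Ndrg2 made up 95.0, 94.2 and 95.1% of the sum with Ndrg4 against 3.0, 3.29 and 2.94%. The groups did not overlap in any of these shares, which is no separate support in pairs chosen with earlier results in view.

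Other exchanged pairs were less complete in 1 of the cell types. The lactate carrier gene Slc16a1 made up 93.0, 94.4 and 95.0% of the sum with Slc16a7 in astrocytes and 46.9, 37.4 and 40% in layer V neurons. Slc12a2, which imports chloride, made up 21.4, 19.3 and 20.2% of the sum with the chloride exporter gene Slc12a5 in astrocytes and 1.91, 1.85 and 2.25% in layer V neurons. The calcium store receptor gene Itpr2 made up 22.2, 24.9 and 28.2% of the sum with Itpr1 against 0.869, 0.691 and 0.637%, and its log2 fold change of 5.33 was 4.25 when the fit allowed for transcript length. Acsl3 made up 97.8, 97.6 and 98.2% of the sum with Acsl4 against 63.1, 63.0 and 62.0%. Slc1a2 with the neuronal glutamate transporter gene Slc1a1 was a further such pair. Of the pairs with 1 gene called, Cpt1a made up 71.7, 73.4 and 76.0% of the sum with the neuronal form Cpt1c in astrocytes and 1.13, 1.25 and 1.13% in layer V neurons. Ldhb made up 84.1, 83.0 and 85.6% of the sum with Ldha against 62.4, 62.6 and 62.6%, and its own log2 fold change of 1.06 lost its call without astrocyte library 3 (0.99). The phosphofructokinase genes Pfkl and Pfkp kept nearly the same ratio, with Pfkl at 35.7, 37.5 and 37.1% of their sum against 35.7, 35.8 and 35.5%.

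**Figure D3:**
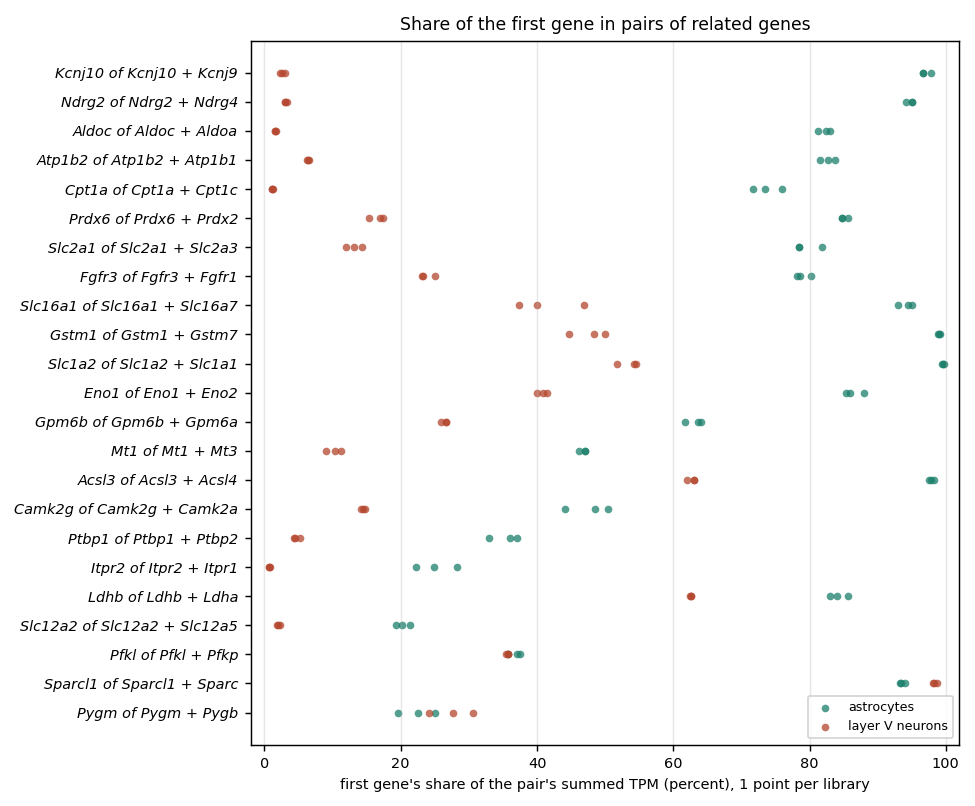
Share of the first gene in the summed TPM of the paralogue pairs shown, in percent, with 1 point for each astrocyte and layer V library. Atp1b2 lies at 81.6 to 83.8% in astrocytes and 6.21 to 6.51% in layer V neurons, and Pfkl at 35.5 to 37.5% over both.

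Transcript use was compared in 6398 genes with at least 5 TPM in each of the 6 libraries and at least 2 transcripts with a mean share of at least 5% of the gene's TPM. In 1170 of them the transcript of largest mean share differed between the cell types, and in 656 it was also the largest in every library of its own cell type. A switch required this, an adjusted p of at most 0.05 for both transcripts in opposite directions (limma on log2 ratios of a transcript to the rest of its gene) and a change of at least 20 percentage points in both shares. These criteria gave 365 switches, 5.70% of the genes tested, and the smaller of the 2 share changes had a median of 32.4 points. The count was 208 of 3157 genes at a minimum of 20 TPM and 109 at a minimum of 40 points. In the gene test, 63.3% of switch genes were not called, against 67.1% of all genes tested for switches, while 83 of the 872 genes called higher in astrocytes switched and 51 of the 1232 called higher in layer V neurons. In the GENCODE M21 annotation, which holds both transcripts for 359 switches, the coding sequence differed in 69.1% of switches, against 56.9% of the main 2 transcripts of other genes tested. First exons that do not overlap were found in 46.8% against 48.7%, last exons that do not overlap in 17.0% against 26.9%, and a pair in which not both transcripts are coding in 16.4% against 29.7%. Shares in astrocyte libraries include RNA of other cells, with neuronal marker sums there at 11.5 to 14.3% of the layer V mean. The part of this RNA in the transcript shares was not tested.

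The neurotrophin receptor gene Ntrk2 (ENSMUSG00000055254.15, chr13:58806569-59133970) switched between forms of its receptor for BDNF. The transcript Ntrk2-202, with 476 codons for a truncated receptor that lacks the kinase domain, made up 78.5, 79.0 and 75.9% of gene TPM in astrocytes and 2.69, 2.53 and 2.03% in layer V neurons (limma adjusted p = 3.6e-06). Ntrk2-201, with 821 codons for the full-length kinase, made up 3.16, 3.42 and 2.67% against 93.5, 93.4 and 94.9% (adjusted p = 3.2e-06). The gene itself was higher in astrocytes, at 728.3, 668.3 and 748.4 against 89.9, 86.0 and 94.5 TPM (2.64). Capzb (chr4:139192899-139291818), a subunit of the protein that caps actin filaments, kept a similar level (-0.29, not called) and switched from Capzb-203, with 277 codons, at 74.7, 76.7 and 79.6% against 0.562, 0.333 and 0.227% (adjusted p = 5.1e-06), to Capzb-204, with 272 codons, at 21.8, 21.4 and 17.0% against 98.7, 98.8 and 99.6% (adjusted p = 1.9e-05). Pcyt1b, a gene of phosphatidylcholine synthesis, used Pcyt1b-202 at 70.6, 69.3 and 77.6% in astrocytes and 0.0% in all 3 layer V libraries, where Pcyt1b-201, from another first exon, made up 100.0%. Pfkfb3, which makes an activator of glycolysis, used Pfkfb3-206 at 62.8, 63.8 and 63.7% in astrocytes and 0.0% in layer V neurons, which used Pfkfb3-201 at 78.7, 83.0 and 83.3%.

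The sodium pump partner gene Nkain4 used Nkain4-201 at 93.6, 96.1 and 95.6% in astrocytes against 5.1, 15.9 and 14.1% in layer V neurons. Masp1, a protease gene of the complement system, used Masp1-203 with 733 codons at 75, 75.2 and 77.3% against 2.12, 1.84 and 2.1%, and layer V neurons used Masp1-204 with 385 codons, while its log2 fold change of 2.71 was 1.78 when the fit allowed for transcript length. The myosin light chain gene Myl6 used transcripts of 151 codons each, Myl6-206 at 72.5, 70.2 and 72.9% against 4.6, 4.3 and 3.68%. Haus7, of a complex that builds spindle microtubules, used Haus7-201 with 364 codons at 75.3, 78.2 and 77.6% against 7.98, 14.6 and 14.5%. For some genes the switch changed transcript length so much that counts and TPM parted. Talin 1 (Tln1) had a log2 fold change of 2.79 in counts but 22.0, 19.9 and 22.7 against 19.8, 21.8 and 21.9 TPM, and 0.14 (adjusted p = 0.15) when the fit allowed for length, with 4.68 from protein-coding transcripts alone, since its main layer V transcript is a non-coding one of 937 bases. Elavl1, an RNA-binding protein gene, switched between transcripts with the same 326 codons and went from -0.65 to 0.47. The ubiquitin ligase gene Rnf130 went from -0.8 to 0.76, and the actin-capping gene Tmod3 from 0.35 to -0.67. Ppp1ccb is a transcribed pseudogene, so its switch from Ppp1ccb-201 at 82.0, 72.7 and 83.7% against 0.0% is uncertain. Over 11901 genes with a mean of at least 5 TPM in either group, count and TPM folds differed by at least 1 log2 unit in 445, and in 16 of the 365 switch genes.

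**Figure D4:**
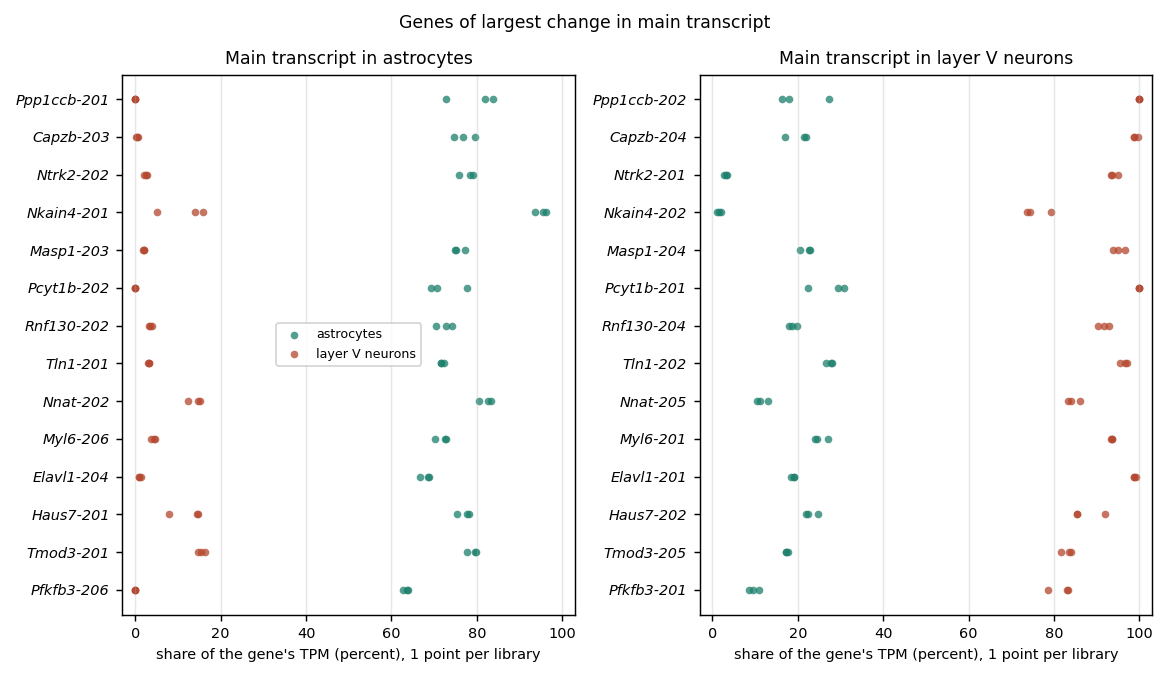
Share of gene TPM, in percent, of the main astrocyte and main layer V transcript of switch genes with the largest share changes, with 1 point per library. Ntrk2-202 lies at 75.9 to 79.0% in astrocytes and 2.03 to 2.69% in layer V neurons.

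Neuronatin (Nnat, chr2:157560078-157562522, plus strand), a small membrane protein gene expressed from the paternal copy, switched by a single exon. Nnat-202, with 81 codons, made up 80.5, 82.7 and 83.4% in astrocytes and 14.8, 15.2 and 12.4% in layer V neurons (limma adjusted p = 9.2e-06), and Nnat-205, with 54 codons, made up 12.9, 11.1 and 10.5% against 83.9, 83.3 and 86.0% (adjusted p = 6.5e-06). The gene was called higher in astrocytes, at 323.9, 417.7 and 416.7 against 193.7, 169.6 and 205.4 TPM (1.27). The exon that only the main astrocyte transcript carries is shown because it is the whole coding difference. It lies at chr2:157561213-157561293 on the plus strand of GRCm38, from GENCODE M21 transcripts, with the exon in capitals and the coding bases beside it in lower case.
Nnat-202 exon: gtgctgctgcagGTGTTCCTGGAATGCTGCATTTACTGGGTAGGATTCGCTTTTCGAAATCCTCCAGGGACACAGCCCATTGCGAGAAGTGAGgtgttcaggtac

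Other switches were chosen for description after their values were seen, because the main transcripts differ by exons known from textbooks. Src, a tyrosine kinase gene, and Clta, the clathrin light chain A gene, gained short coding exons in layer V neurons. Src-202, which carries an exon of 18 bases that lengthens the SH3 domain in neurons, made up 7.31, 7.6 and 0.125% in astrocytes and 75.4, 74.2 and 83.5% in layer V neurons (limma adjusted p = 0.002), and Src-201 made up 60.2, 56.2 and 48.7% against 2.5, 3.37 and 3.29% (adjusted p = 2e-05). Clta-205, which carries exons of 54 and 36 bases, made up 21.8, 24 and 21.4% against 77.4, 76.4 and 77.7% (adjusted p = 1.3e-05), and Clta-206, which lacks both, made up 57.4, 56.5 and 55.3% against 0.28, 0.255 and 0.299% (adjusted p = 1.8e-06). The exons are shown as the sequence that sets the neuronal forms apart, in capitals with neighbouring coding bases in lower case, from GENCODE M21 on the plus strand of GRCm38. They lie at chr2:157458843-157458860 in Src, and at chr4:44030215-44030268 and chr4:44031400-44031435 in Clta.
Src-202 exon: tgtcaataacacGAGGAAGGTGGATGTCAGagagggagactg
Clta-205 first exon: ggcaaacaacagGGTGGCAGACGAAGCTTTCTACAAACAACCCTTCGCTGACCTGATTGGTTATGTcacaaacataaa
Clta-205 second exon: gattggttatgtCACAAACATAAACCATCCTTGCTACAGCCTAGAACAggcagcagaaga

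Pyruvate kinase (Pkm), the last enzyme of glycolysis, exchanged a pair of exons of 167 bases. Pkm-201, with the exon of the M2 form, made up 78.2, 75.2 and 79.7% in astrocytes and 37.0, 37.6 and 36.7% in layer V neurons (limma adjusted p = 5.1e-05). Pkm-202, with the exon of the M1 form, made up 21, 23.9 and 19.7% against 62.7, 62.1 and 63.0% (adjusted p = 4.5e-05). The part of neuronal RNA in the astrocyte shares was not tested. The exons, at chr9:59675568-59675734 and chr9:59675029-59675195 on the plus strand, share 103 of 167 positions (61.7%), and capitals mark the positions that differ.
Pkm-201 exon: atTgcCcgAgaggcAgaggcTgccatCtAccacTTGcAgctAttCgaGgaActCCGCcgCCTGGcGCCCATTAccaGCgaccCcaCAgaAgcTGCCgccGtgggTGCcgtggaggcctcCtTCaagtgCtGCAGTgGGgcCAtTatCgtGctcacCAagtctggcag
Pkm-202 exon: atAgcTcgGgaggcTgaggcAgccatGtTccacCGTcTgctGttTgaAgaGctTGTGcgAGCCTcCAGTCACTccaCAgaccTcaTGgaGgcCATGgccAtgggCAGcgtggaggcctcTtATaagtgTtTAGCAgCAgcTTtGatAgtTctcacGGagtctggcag

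The AMPA receptor gene Gria1 exchanged its flip and flop exons, which encode a stretch that sets how fast the channel desensitises. Gria1-201, with the flip exon, made up 62.4, 65.0 and 68.6% in astrocytes and 38.1, 35.7 and 39.7% in layer V neurons (limma adjusted p = 0.00038), and Gria1-202, with the flop exon, made up 34.9, 34.0 and 28.1% against 58.9, 62.3 and 59.2% (adjusted p = 0.00047). Gria1 itself was not called, at 52.8, 56.2 and 70.7 against 95.4, 85.0 and 95.4 TPM (-0.47). The exons, at chr11:57310608-57310722 and chr11:57309769-57309883 on the plus strand, share 79 of 115 positions (68.7%), with the differing positions in capitals.
Gria1-201 exon: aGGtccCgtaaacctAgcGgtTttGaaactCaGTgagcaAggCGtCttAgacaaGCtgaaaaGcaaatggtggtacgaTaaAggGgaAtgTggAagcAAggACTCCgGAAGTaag
Gria1-202 exon: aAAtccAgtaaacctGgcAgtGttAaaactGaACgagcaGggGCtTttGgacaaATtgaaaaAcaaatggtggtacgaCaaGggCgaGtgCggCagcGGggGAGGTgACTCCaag

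Acsl6, an acyl-CoA synthetase gene that acts on polyunsaturated fatty acids, likewise exchanged exons of 78 bases. Acsl6-207 made up 71.2, 63.6 and 68.4% in astrocytes and 2.19, 3.54 and 0.0% in layer V neurons (limma adjusted p = 0.00012), and Acsl6-210 made up 14.9, 13.1 and 11% against 72.8, 63.6 and 51.2% (adjusted p = 0.00033). The gene was far higher in astrocytes, at 701.0, 607.0 and 674.7 against 30.2, 30.4 and 32 TPM (4.01). Its exons, at chr11:54337071-54337148 and chr11:54336936-54337013 on the plus strand, share 46 of 78 positions (59.0%), with the differing positions in capitals.
Acsl6-207 exon: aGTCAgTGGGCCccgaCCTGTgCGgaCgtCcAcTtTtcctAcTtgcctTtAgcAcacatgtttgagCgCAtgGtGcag
Acsl6-210 exon: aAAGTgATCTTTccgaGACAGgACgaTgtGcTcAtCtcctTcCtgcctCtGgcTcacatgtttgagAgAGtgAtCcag

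Over all switches, 149 genes had a coding exon carried by the main transcript of only 1 cell type. Main astrocyte transcripts carried 100 such exons in 80 genes, with a median of 98.0 bases, and 62.0% were a multiple of 3 bases long, which keeps the reading frame. Main layer V transcripts carried 96 in 84 genes, with a median of 42.5 bases, and 81.2% were a multiple of 3. Exons of at most 30 bases numbered 5 on the astrocyte side and 29 on the layer V side, of which 5 and 26 kept the frame. These counts are a description without a test and without the same counts over the other genes tested. In 4 genes (Acsl6, Atp8a1, Gria1 and Pkm) each main transcript carried 1 exon of its own and both had equal length.

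Promoters were searched for 4 motifs in a window of 250 bases before to 50 after the annotated start (RefSeq, GRCm38.p6), on both strands and as a description only. Symbols of 3929 of 5662 astrocyte genes, 2808 of 4349 layer V genes and 14019 of 20792 genes tested matched the promoter table. The cyclic AMP response element TGACGTCA was in 1.83% of promoters of astrocyte genes, 2.55% of layer V genes, 2.63% of all genes tested and 1.79% of the whole table, and at least 1 promoter had it in 2.11, 3.24, 3.12 and 2.03% of genes. The TATA box TATAAA was in 9.43, 9.95, 8.65 and 13.6% in the same order. The E-box CAGATG was in 14, 14.6, 13.3 and 17.2%, and the palindromic nuclear factor I site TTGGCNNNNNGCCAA was in 2, 0, 5 and 12 promoters. As examples among named genes, the 250 bases before the start are shown for Slc1a3 (chr15:8710808-8711057), Cck (chr9:121495695-121495944) and Btg2 (chr1:134079156-134079405), all on the minus strand. Capitals mark matches to the motif letters, whose use in these promoters was not tested. They are the TATA box letters in Slc1a3, on the opposite strand and not close to the start, the E-box in Cck and the cyclic AMP response element in Btg2.
Slc1a3 promoter: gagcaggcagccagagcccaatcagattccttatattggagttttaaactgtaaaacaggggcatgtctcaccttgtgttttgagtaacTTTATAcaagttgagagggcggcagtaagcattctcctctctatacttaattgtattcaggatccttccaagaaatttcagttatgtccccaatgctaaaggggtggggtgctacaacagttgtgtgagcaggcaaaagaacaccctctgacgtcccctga
Cck promoter: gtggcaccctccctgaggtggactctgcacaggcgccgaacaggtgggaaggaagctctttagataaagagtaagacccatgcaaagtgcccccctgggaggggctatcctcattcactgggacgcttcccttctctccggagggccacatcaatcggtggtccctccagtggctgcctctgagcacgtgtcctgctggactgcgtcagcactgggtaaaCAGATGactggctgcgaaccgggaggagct
Btg2 promoter: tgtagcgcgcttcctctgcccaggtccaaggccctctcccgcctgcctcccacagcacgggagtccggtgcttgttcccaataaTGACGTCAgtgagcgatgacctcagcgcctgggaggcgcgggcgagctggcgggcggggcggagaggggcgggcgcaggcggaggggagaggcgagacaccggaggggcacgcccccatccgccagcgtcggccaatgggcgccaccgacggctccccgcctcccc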

How the data were processed

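RiboTag mRNA libraries (stranded, poly(A)) were analysed from the authors' transcript tables. Reads had been trimmed with cutadapt 3.5 and assigned by kallisto 0.46.2 to GENCODE M24 (GRCm38), and the authors deposited estimated counts and TPM for each transcript. Estimated counts were summed per gene and rounded. Genes that reached 5 counts in 47% or more of the 6 libraries were tested with edgeR 4.0.16 (TMM factors, glmQLFit and glmQLFTest, Benjamini-Hochberg adjustment) in R 4.3.3. The SE of a log2 fold change was derived from this test, as its absolute value divided by the square root of the F statistic. Transcript shares were tested with limma 3.58.1 on log2 ratios with a pseudocount of 0.5 TPM. Scripts were tested on simulated data.

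Members and the 41 gene lists were chosen with earlier results of these data known, and 2 lists (red blood cells, choroid plexus) were added after the data were seen. Genes were named by rule: the markers and Cre driver genes; in each direction the 12 largest fold changes at a mean of at least 20 TPM and the 10 most abundant called genes; up to 3 called members in each direction and 1 uncalled member of each list; all paralogue pairs; and the 15 largest switches. Predicted genes were left out of the largest and most abundant ones. For length, not every gene that the rule selects is printed, and this choice, like genes outside the rule (Pkm, Gria1, Src, Clta and the leading markers of other cell types), was made after the values were seen. Coordinates, transcripts and exons are from GENCODE M21, promoters from RefSeq GRCm38.p6. Protein identity of paralogues was not analysed here. The 11 gene-level and 9 transcript-level alternatives included DESeq2 1.42.0, other filters and scalings, sex, a block on replicate number, a length offset and batch 2 libraries. The batch 2 libraries are labelled astrocyte replicate 2 and layer V replicate 1, which the comparison already holds from batch 1. They correlated at 0.9987 and 0.9989 with those libraries in log2 CPM. In that alternative they took the place of those batch 1 libraries, with batch as a covariate, and they are not new replicates by label. Each of the 6 libraries was also left out in turn. Python 3.11.15, numpy 2.4.6, pandas 2.3.3, scipy 1.17.1 and matplotlib 3.10.9 were used.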

Additional observations from a re-analysis of the deposited data

Results flagged for a closer look

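A signal appeared in a library that the comparison does not use. The batch 2 library of layer V replicate 1 is labelled male, but Xist was at 2.13 TPM there (1178.0 estimated counts) and the Y-linked gene Ddx3y at 0.034 TPM (4.0 counts). The batch 1 library of the same replicate is labelled female, with Xist at 2.45 TPM and Ddx3y at 0.0859 TPM. The cause was not tested.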

How the results depend on the processing

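The number of genes higher in astrocytes was 5534 to 5589 when single libraries were left out and 3914 to 6266 under the other alternatives, against 5669. The number higher in layer V neurons was 4149 to 4373 and 3114 to 4659, against 4355. The lowest counts came from a filter that left 14648 genes. The highest came with no filter (33256 genes) for astrocytes and with library size alone for layer V neurons. The exchanged paralogue pairs numbered 11 without any single library and 10 to 11 otherwise. Switches numbered 366 to 403 when single libraries were left out, against 365, and moved by over 1.5 times at 20 TPM (208) and at 40 points (109), both stricter by construction. Another test, edgeR diffSpliceDGE, gave 284, all among the 365. Protein-coding transcripts alone gave 338 in 4697 genes, with 284 shared. The fit with batch 2 libraries gave 349, with 313 shared. A minimum of 1 TPM gave 467 and a minimum of 10 points gave 528, each with all 365. Promoter percentages moved 3 times and stayed 63 times under the other alternatives, and stayed all 36 times without single libraries. With the replicate number as a block, 5582 and 4272 genes and 365 switches were called. Deviations of same-numbered libraries correlated at 0.037, -0.039 and 0.038. These values gave no sign that the numbers pair the libraries, but 3 libraries per group are too few to settle it.

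Log2 fold changes near 0 changed sign in Gapdh (-0.05 by library size, -0.03 with the length offset, -0.04 with all 6 cell types, -0.01 to 0.07 without single libraries), mt-Nd3 (-0.45 to 0.38 without single libraries, with -0.21 without layer V library 1), the log2 fold change of Rps24 (0.0 with no count filter, from -0.11 without astrocytes replicate 3 to 0.0 without astrocytes replicate 1), the log2 fold change of Pcyt1b (0.0 with no count filter, from -0.11 without astrocytes replicate 3 to 0.01 without astrocytes replicate 1), Rack1 (-0.01 with the length offset), and Cacna1d (0.21) and Gabra2 (-0.13) from protein-coding transcripts. With the length offset, Rnf130 (0.76), Elavl1 (0.47) and Tmod3 (-0.67) reversed, as the offset allows for the length of their switched transcripts. Sostdc1 was at -1.69 to 2.15 without single libraries. Ttr was at -1.37 between the batch 2 libraries, a comparison without a test chosen after seeing the data. Its log2 fold change was 8.04 by DESeq2, which gave no adjusted p and so no call. With batch 2 libraries in place of the batch 1 libraries of the same replicate numbers it was 7.8 and not called (edgeR adjusted p = 0.067). For the other reversals the cause was not tested. Apart from reversals, and counting each of 267 named genes once per fit, a call was lost 12 times and gained 3 times over the 6 fits without single libraries, and lost 29 times and gained 3 times over the 11 other alternatives with a test. Of the 29 losses, 10 came from a test against a 2-fold difference (edgeR glmTreat), with values unchanged. Has1 (-1.46, adjusted p = 0.054) and Cacna2d4 (1.16, adjusted p = 0.14) were among them. Direction and call stayed 1581 times without single libraries. Between the batch 2 libraries, without a test, 24 genes moved.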
